A study of Mus musculus with 12 samples.

Results

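Expression of 10 immediate early and MAPK feedback genes was examined in mouse bone marrow macrophages after neutralization of integrin α5 (ITGA5), the subunit that pairs with integrin β1 to form the main fibronectin receptor. The genes were Egr1, Fos, Jun, Junb, Atf3, Ier2, Ier3, Dusp1, Dusp6 and Spry2, chosen by symbol from the 54532 genes of the count table, and each symbol matched 1 gene ID. The RNA-seq data comprised 12 libraries in 4 groups of 3, control IgG or anti-ITGA5 antibody, each on uncoated plates (without fibronectin) and on coated plates (with fibronectin). The cells came from the marrow of wild-type C57BL/6J mice aged 2 to 3 months, were differentiated in CSF-1, and were passaged either onto plates precoated with fibronectin or onto normal culture plates, here called uncoated. All cells then received an antibody at 10 µg/ml for 24 h, either control IgG or the neutralizing anti-ITGA5 antibody. The cells of all 4 groups had been grown in medium with fetal calf serum, and no group was left without antibody. The study describes its in vitro groups as independent biological experiments, and the labels do not say whether the 3 samples of a group came from separate mice or cultures, so the p-values measure the spread between these samples.

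Immediate early genes are transcribed within minutes of a stimulus without new protein synthesis, largely through ERK, JNK and p38 kinases acting on factors bound at their promoters. Integrin engagement by matrix and growth factor receptors both feed into ERK. Among the products are transcription factors of the AP-1 and EGR families, which drive later genes, and inhibitors that act back on the pathway: dual-specificity phosphatases (DUSPs) remove phosphate from MAP kinases, and Sprouty proteins restrain the pathway between receptor and kinase. At 24 h the measurement reflects a sustained level rather than the first burst of transcription.

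Total counts ranged from 12954342 to 22075432 per library, with the fewest in anti-ITGA5 without fibronectin replicate 2. That library also stood apart in other ways: 8 of 9695 genes with a mean above 5 CPM (counts scaled to the library total) lay more than 5-fold below every other library, among them Hsp90aa1, with 256 counts against 10848 to 15058 elsewhere, and no other library held such a gene. None of the 10 genes was among them. The spread was also wider in the anti-ITGA5 without fibronectin group as a whole. The mean chi-square per gene between its replicates (difference in counts given the library totals) was 11.44 for replicates 1 and 3. It was 15.08 for replicates 1 and 2 and 25.56 for 2 and 3, against 2.79 to 8.13 in the other groups. The summed FPKM (a level corrected for transcript length and total depth) of 8 macrophage markers was 8977 to 9822 with IgG and 6129 to 7517 with anti-ITGA5 on uncoated plates, and 9558 to 9759 and 7336 to 7506 in the same order on fibronectin. Lyz2, the macrophage lysozyme, made up most of that sum at 4559 to 7988 FPKM. Of these 8 markers 4 fell (Lyz2, Cd68, Itgam and Mertk) and 1 rose (Cd14) upon ITGA5 neutralization on each surface. The log2 fold change of Lyz2 was -0.51 (adjusted p = 7.9e-04) without and -0.46 (adjusted p = 3.1e-06) with fibronectin, and those of Csf1r and Adgre1 were between -0.12 and 0.10 and were not called. Adgre1 was called higher with fibronectin by DESeq2 (adjusted p = 0.036) and with total counts (0.0101). Fcgr1 was called lower without fibronectin by DESeq2 (adjusted p = 0.0433). Their part in the results below was not tested. In bulk RNA, fewer cells of a kind and less RNA per cell cannot be told apart. The 7 neutrophil markers summed to at most 4.52 FPKM, the 3 T cell markers to at most 0.0148 FPKM and the 3 B cell markers to at most 0.481 FPKM. The antibody acts on the protein, so Itga5 mRNA is no check of it: the log2 fold change of Itga5 upon neutralization was 0.15 without fibronectin (adjusted p = 0.0906) and 0.08 with fibronectin (adjusted p = 0.273).

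The genes are compact. All 10 had at most 4 exons in their longest transcript, against 30.6% of 13444 genes tested, and Jun, Junb and Ier2 had a single exon, as did 9.42% of genes tested. The median span was 3809.5 bp, against 19556 bp over all genes tested. On GRCm38, Fos lies at chr12:85473890-85477273 on the plus strand, Dusp6 at chr10:99263231-99267489 on the plus strand, Junb at chr8:84974484-84978718 on the minus strand and Dusp1 at chr17:26505590-26508519 on the minus strand. Atf3, at chr1:191170296-191218039 on the minus strand, was the exception in length with a span of 47744 bp. Ier2 (chr8:84661331-84662852) and Spry2 (chr14:105891947-105896819) lie on the minus strand, and Ier3 (chr17:35821684-35822923) on the plus strand. Egr1, Fos, Ier2, Ier3, Dusp1, Dusp6 and Spry2 overlap no other gene of the count table. Jun, at chr4:95049034-95052222 on the minus strand, overlaps 689 bases of its antisense gene Junos, and Junb overlaps 351 bases of Prdx2, which runs in the opposite direction. How strand was treated in counting is not given in the sources used here, so reads in these shared bases cannot be assigned with certainty. Junos had at most 160 counts in a library and Jun at least 2214, whereas Prdx2 had up to 2720 counts and Junb 729 to 1893.

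Promoter windows from RefSeq (GRCm38.p6, 250 bases before to 50 after the start) were found for 8 of the 10 genes, all but Egr1 and Ier2, and were searched on both strands for letters bound by factors that act on immediate early genes. The letters TGACG, the core of the cAMP response element (CRE) bound by CREB and ATF proteins, were found in 4 of 8 windows (Fos, Junb, Atf3 and Dusp1), against 21% of 27025 promoters of the same length. The full CRE, TGACGTCA, which contains that core, was found in Dusp1 alone, against 1.88% of all promoters. The AP-1 site TGANTCA was in 0 of 8 windows (7.93% of all promoters), and the CArG box, bound by serum response factor, was in 0 of 8 (1.57%). GGGCGG, bound by Sp1, was in 5 of 8 (35.9%), and TATAAA was in 2 of 8 (14.2%). A match is a description of letters in this window and not a binding site, and further sites can lie outside it. The bases just before the start are shown for 3 genes that fell upon ITGA5 neutralization on both surfaces (Fos, Junb and Dusp6) and for Dusp1, which fell with fibronectin and was not called without it. Capitals mark the CRE core, which in Dusp1 lies on both strands and so spans the full CRE. The 47 bases nearest the RefSeq start of Dusp1 are left off because they lie in an exon of the GENCODE vM21 annotation.
Fos, chr12:85473740-85473889, plus strand: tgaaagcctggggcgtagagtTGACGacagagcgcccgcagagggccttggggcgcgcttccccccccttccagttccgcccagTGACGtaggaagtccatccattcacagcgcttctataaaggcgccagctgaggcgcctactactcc
Junb, chr8:84978749-84978898, minus strand: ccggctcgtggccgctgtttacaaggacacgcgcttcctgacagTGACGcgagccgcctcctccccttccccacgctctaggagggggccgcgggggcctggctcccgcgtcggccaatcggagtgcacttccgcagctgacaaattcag
Dusp6, chr10:99263081-99263230, plus strand: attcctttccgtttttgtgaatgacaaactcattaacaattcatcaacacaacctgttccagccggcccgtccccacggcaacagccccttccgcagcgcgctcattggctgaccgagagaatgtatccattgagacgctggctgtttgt
Dusp1, chr17:26508520-26508622, minus strand: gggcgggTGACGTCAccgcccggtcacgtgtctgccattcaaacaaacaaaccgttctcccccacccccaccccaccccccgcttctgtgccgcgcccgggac

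ITGA5 neutralization lowered a part of the group on both surfaces and raised none of it past the threshold. Without fibronectin, 4 of the 10 genes fell (Fos, Junb, Atf3 and Dusp6). With fibronectin 6 fell (the same 4 together with Ier3 and Dusp1). The spread between replicates over all genes (biological coefficient of variation) was 0.081 in the comparison without fibronectin and 0.058 in that with it. Of all genes tested, 9.79% fell and 11% rose without fibronectin, and 13.2% fell and 14.4% rose with fibronectin (edgeR quasi-likelihood test, adjusted p of at most 0.05). The median log2 fold change of the 10 genes was -0.16 without and -0.29 with fibronectin, beside 0.009 and -0.0038 over all genes tested. At an unadjusted p under 0.05, 5 of the 10 were lower and 1 (Egr1) higher without fibronectin, where 16.2% of all genes tested were lower and 17.3% higher. With fibronectin 7 were lower and 0 higher, against 18.9% and 19.8% of all genes. DESeq2 called 0 higher on either surface. Scaled to total counts, the split over all genes moved from 1265 lower and 1419 higher to 940 lower and 1838 higher without fibronectin, and from 1699 lower and 1866 higher to 1264 lower and 2407 higher with fibronectin, while the 10 genes gave 3 lower and 1 higher (Egr1) and 6 lower and 0 higher.

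**Figure D1:**
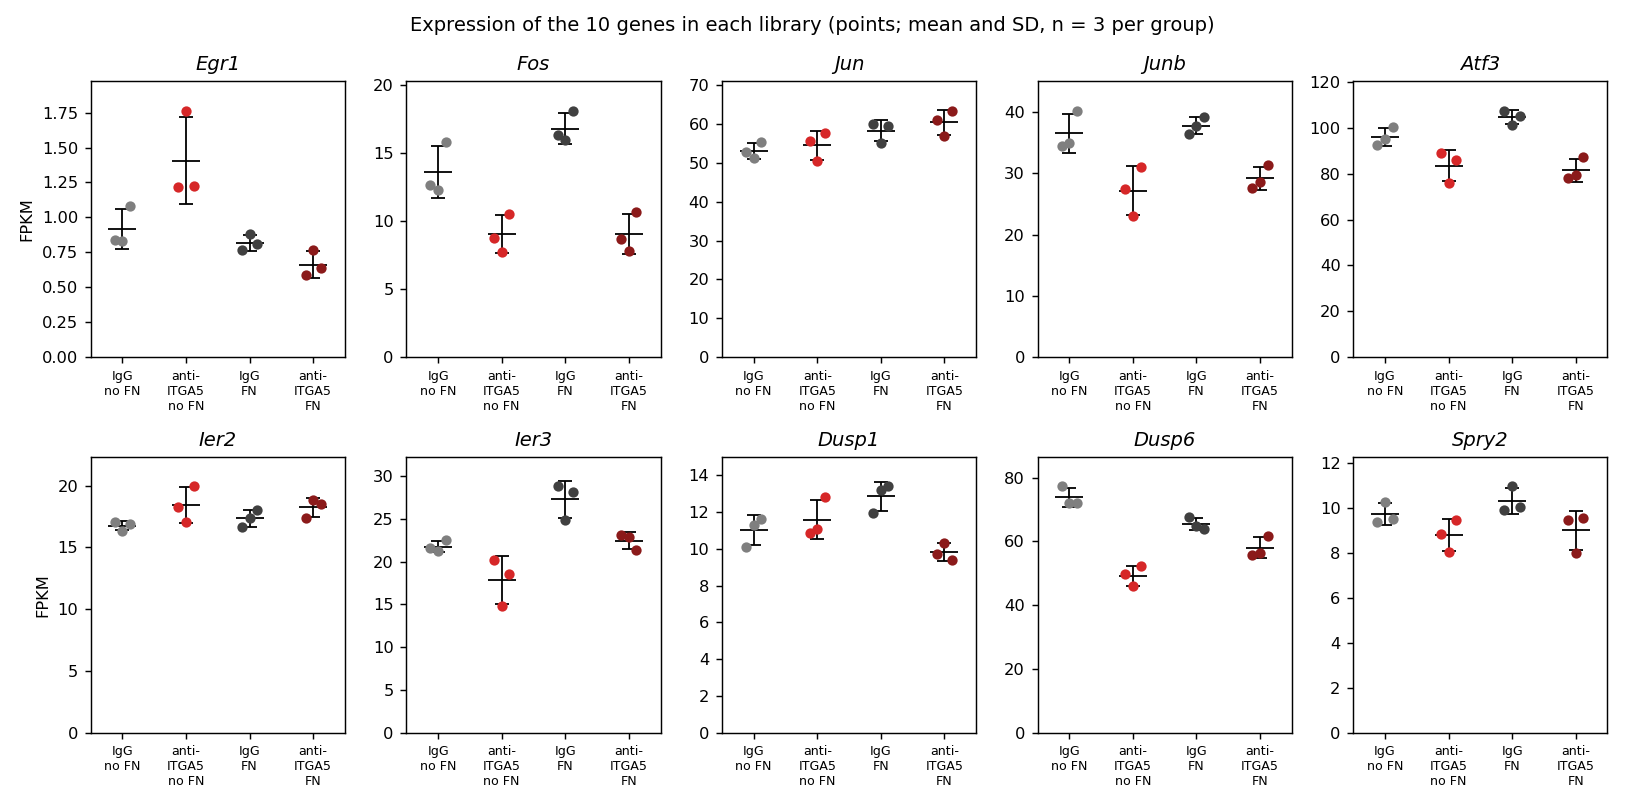
FPKM of each gene (vertical axis, from 0) in each of the 12 libraries, by group (horizontal axis; FN, fibronectin). Points are libraries, and bars are the mean and SD of 3. Fos and Dusp6 show separate IgG and anti-ITGA5 values on both surfaces, whereas Jun values overlap on both.

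Fos encodes the inducible AP-1 subunit c-Fos, which must pair with a JUN protein to bind DNA. Its level without fibronectin was 12.7, 12.3 and 15.8 FPKM in the IgG libraries and 8.77, 7.75 and 10.5 FPKM in the anti-ITGA5 libraries. With fibronectin it was 16.3, 15.9 and 18.1 FPKM with IgG and 8.67, 7.77 and 10.7 FPKM with anti-ITGA5. Every anti-ITGA5 library lay below every IgG library on the same surface, and both anti-ITGA5 groups had nearly the same mean, 9.01 ± 1.39 and 9.04 ± 1.49 FPKM (SD, n = 3). The log2 fold change was -0.58 (SE 0.121, adjusted p = 0.00705) without fibronectin and -0.90 (SE 0.102, adjusted p = 4.8e-05) with it, that is 0.67 and 0.537 times the IgG level. Fos was called under each of the alternatives run on each surface.

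Junb, the AP-1 subunit that often opposes c-Jun at shared targets, followed at a smaller size. Its level was 34.5, 35.0 and 40.3 FPKM in IgG without fibronectin and 27.4, 23.0 and 31.0 FPKM in anti-ITGA5 without fibronectin. With fibronectin the values were 36.4, 37.8 and 39.1 FPKM with IgG and 27.6, 28.5 and 31.4 FPKM with anti-ITGA5. The groups did not overlap on either surface. The log2 fold changes were -0.42 (SE 0.0971, adjusted p = 0.0116) and -0.38 (SE 0.0569, adjusted p = 4.0e-04). Without IgG without fibronectin replicate 3, the highest IgG library, the call on the uncoated surface was lost (log2 fold change -0.35, adjusted p = 0.0695). Prdx2, which shares bases with Junb, had log2 fold changes of -0.03 (adjusted p = 0.783) and -0.08 (adjusted p = 0.239).

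Atf3, a stress-induced factor of the CREB/ATF family that can dimerize with JUN proteins and restrains inflammatory genes in macrophages, was the most abundant of the 10 in every group. The IgG libraries without fibronectin held 92.7, 95.0 and 100.3 FPKM and the anti-ITGA5 libraries 88.9, 75.8 and 86.1 FPKM. With fibronectin the levels were 108, 101 and 105 FPKM against 78.1, 79.3 and 87.3 FPKM. The values did not overlap on either surface, but the gap was narrow without fibronectin, where the log2 fold change was -0.19 (SE 0.0622, adjusted p = 0.0497). That call was lost in 8 of the alternatives, among them each removal of a library other than anti-ITGA5 without fibronectin replicate 2, and its adjusted p ranged from 0.0278 to 0.198. With fibronectin the log2 fold change was -0.36 (SE 0.0494, adjusted p = 1.9e-04), and the call was kept in every alternative run.

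Jun encodes c-Jun, the partner of c-Fos. Its level was 52.9, 51.1 and 55.3 FPKM in IgG without fibronectin and 55.7, 50.4 and 57.6 FPKM in anti-ITGA5 without fibronectin. With fibronectin it was 60.1, 55.1 and 59.6 FPKM with IgG and 60.9, 56.9 and 63.5 FPKM with anti-ITGA5. The groups overlapped on both surfaces, and the log2 fold changes of 0.05 (SE 0.0575, adjusted p = 0.633) and 0.05 (SE 0.0508, adjusted p = 0.496) were within the spread. The mean level of Jun was above that of Fos in every group. The antisense gene Junos, named after its values were seen, fell on both surfaces, by 0.89 (adjusted p = 0.0063) and 0.82 (adjusted p = 0.00416) on the log2 scale.

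Egr1, a zinc finger transcription factor induced through ERK and serum response factor, was the least abundant, with 47 to 113 counts per library. Without fibronectin its level was 0.839, 0.832 and 1.08 FPKM with IgG and 1.22, 1.77 and 1.23 FPKM with anti-ITGA5. With fibronectin it was 0.763, 0.881 and 0.806 FPKM with IgG and 0.586, 0.767 and 0.634 FPKM with anti-ITGA5. The uncoated anti-ITGA5 libraries lay above all others, whereas the fibronectin groups overlapped. The log2 fold change was 0.61 (SE 0.198, adjusted p = 0.0523) without fibronectin and -0.31 (SE 0.18, adjusted p = 0.232) with it, so neither passed the threshold. The first one passed it in 4 alternatives, with total counts (adjusted p = 0.047), with no filter (0.0134), with all 12 libraries in one fit (0.023) and without anti-ITGA5 without fibronectin replicate 3 (0.0479), over a range of 0.0134 to 0.176.

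The immediate early response genes Ier2 and Ier3 encode short-lived nuclear and membrane-associated proteins, and Ier3 modulates ERK activity and cell survival. Ier2 was at 17.1, 16.3 and 16.9 FPKM in IgG without fibronectin and 18.3, 17.1 and 20.0 FPKM in anti-ITGA5 without fibronectin. With fibronectin it was at 16.7, 17.4 and 18.0 FPKM with IgG and 17.4, 18.8 and 18.6 FPKM with anti-ITGA5. The uncoated groups were just separate and the coated groups overlapped, and the log2 fold changes of 0.15 (SE 0.0736, adjusted p = 0.197) and 0.07 (SE 0.07, adjusted p = 0.509) were not called.

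Ier3 was at 21.6, 21.2 and 22.5 FPKM in IgG without fibronectin and 20.3, 14.8 and 18.5 FPKM in anti-ITGA5 without fibronectin. With fibronectin its level was 28.8, 24.9 and 28.2 FPKM with IgG and 23.2, 22.8 and 21.3 FPKM with anti-ITGA5. Anti-ITGA5 libraries were below IgG libraries on each surface. The log2 fold change was -0.27 (SE 0.101, adjusted p = 0.0804) without and -0.28 (SE 0.0769, adjusted p = 0.0171) with fibronectin. Leaving out anti-ITGA5 without fibronectin replicate 2, the lowest library, moved the first to -0.17 (adjusted p = 0.128). The second call was lost without IgG with fibronectin replicate 1 (0.0715) or replicate 3 (0.0575), and the first comparison was called with no filter (0.039), with all 12 libraries in one fit (0.0456) and without anti-ITGA5 without fibronectin replicate 1 (0.0482), over a range of 0.039 to 0.223.

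Dusp6, the cytoplasmic phosphatase that is specific for ERK and is itself induced by ERK, showed the largest of the uncoated changes relative to its error. The IgG libraries without fibronectin held 77.3, 72.2 and 72.1 FPKM and the anti-ITGA5 libraries 49.7, 45.9 and 52.2 FPKM. With fibronectin the levels were 67.7, 64.7 and 64.0 FPKM against 55.8, 56.5 and 61.7 FPKM. The groups were separate on both surfaces, by a wide margin on uncoated plates and a narrow one on fibronectin. The log2 fold change was -0.58 (SE 0.057, adjusted p = 7.1e-05) without fibronectin, called in every alternative run, and -0.18 (SE 0.0476, adjusted p = 0.0154) with it. The second call was lost without IgG with fibronectin replicate 1 (0.0777), anti-ITGA5 with fibronectin replicate 1 (0.084) or anti-ITGA5 with fibronectin replicate 2 (0.0524).

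Dusp1, a nuclear phosphatase that inactivates p38 and JNK and limits cytokine output in macrophages, fell with fibronectin and was not called without it. Without fibronectin it was at 10.1, 11.3 and 11.6 FPKM with IgG and 10.9, 11.1 and 12.8 FPKM with anti-ITGA5. With fibronectin it was at 11.9, 13.2 and 13.4 FPKM with IgG and 9.74, 10.3 and 9.37 FPKM with anti-ITGA5. The uncoated groups overlapped, with a log2 fold change of 0.08 (SE 0.0845, adjusted p = 0.549), and the fibronectin groups were separate, with a log2 fold change of -0.39 (SE 0.0723, adjusted p = 0.00163), a call kept in every alternative run.

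Spry2, a Sprouty protein that restrains signaling from growth factor receptors to ERK, was at 9.37, 10.3 and 9.48 FPKM in IgG without fibronectin and 8.85, 8.04 and 9.46 FPKM in anti-ITGA5 without fibronectin. With fibronectin its level was 9.89, 11.0 and 10.0 FPKM with IgG and 9.45, 7.98 and 9.56 FPKM with anti-ITGA5. The uncoated groups overlapped and the fibronectin groups did not, and neither log2 fold change was called, at -0.14 (SE 0.0847, adjusted p = 0.298) and -0.20 (SE 0.0885, adjusted p = 0.118).

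**Figure D2:**
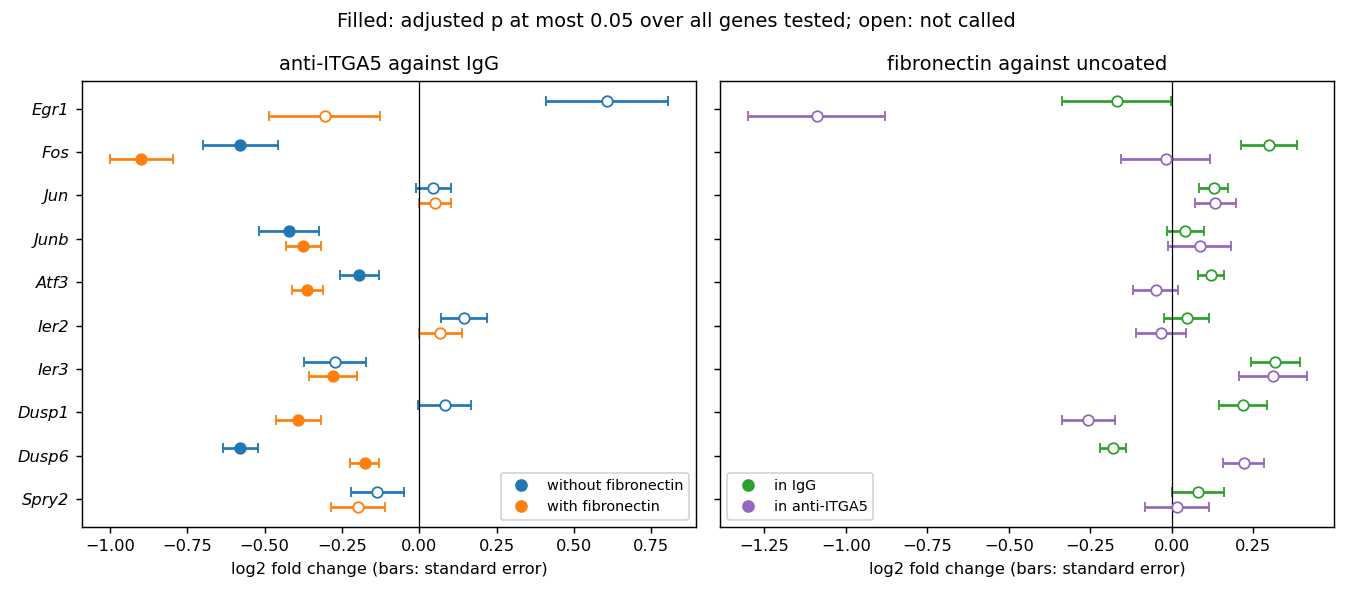
Log2 fold change (horizontal axis; bars are the standard error) of each gene for anti-ITGA5 against IgG (left) and fibronectin against uncoated plates (right), with edgeR on 6 libraries each. Filled points passed an adjusted p of 0.05 over all genes tested, 4 and 6 genes on the left and 0 on the right.

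Fibronectin coating itself changed none of the 10 genes past the threshold. In IgG-treated macrophages 0 of 10 were called, 0.124% of all genes tested fell and 0.325% rose. At an unadjusted p under 0.05, 6 of the 10 differed: Fos, Jun, Atf3, Ier3 and Dusp1 were higher and Dusp6 was lower with fibronectin. Of all genes tested, 9.79% were at that threshold in either direction. Ier3 had a log2 fold change of 0.32 (SE 0.0744, adjusted p = 0.0842), Fos of 0.30 (SE 0.0866, adjusted p = 0.182), Dusp1 of 0.22 (SE 0.0729, adjusted p = 0.285) and Dusp6 of -0.18 (SE 0.0399, adjusted p = 0.062). Jun and Atf3 differed by 0.13 and 0.12. The groups did not overlap for Fos, Atf3, Ier3, Dusp1 and Dusp6, but the share of all genes tested that separate in this way was not computed. DESeq2 called Dusp6 alone (adjusted p = 0.0069), and total counts called it too (0.0336). With no filter on low counts Fos (0.00434), Ier3 (0.00826) and Dusp6 (0.00552) were called. On leaving out a library, Fos was called without IgG without fibronectin replicate 3 (0.0229) and Ier3 was called without IgG with fibronectin replicate 2 (0.0197).

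In anti-ITGA5-treated macrophages, coating called 0 of the 10 genes, and 0% of all genes tested fell and 0% rose, with 461 of 12863 at an unadjusted p under 0.05 and 2 lower and 3 higher genes by DESeq2. By DESeq2 0 of the 10 were called. At an unadjusted p under 0.05, 4 of the 10 differed, against 3.58% of all genes tested. Egr1 had a log2 fold change of -1.09 (SE 0.21, adjusted p = 0.585), which was called with no filter on low counts (3.3e-05). Dusp6 was at 0.22 (SE 0.0629, adjusted p = 0.979), Ier3 at 0.31 (SE 0.103, adjusted p = 0.979) and Dusp1 at -0.26 (SE 0.0813, adjusted p = 0.979). Fos, which was 0.30 higher on fibronectin with IgG, was at -0.02 (SE 0.136) with anti-ITGA5.

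Whether neutralization acted differently on the 2 surfaces was tested with the interaction of antibody and coating over the 12 libraries. It called 0 of the 10 genes, and 0.0223% of all genes tested. At an unadjusted p under 0.05 were Dusp6, Dusp1 and Egr1, 3 of the 10, against 2.87% of all genes tested, and DESeq2 called Dusp6. For Dusp6 the log2 fold change upon neutralization was 0.40 higher with fibronectin than without (SE 0.0767, adjusted p = 0.338 with edgeR and 0.00507 with DESeq2). For Dusp1 it was lower with fibronectin, at -0.48 (SE 0.112, adjusted p = 0.9997), and for Egr1 at -0.92 (SE 0.265, adjusted p = 0.9997). The difference for Fos was -0.32 (SE 0.177, adjusted p = 0.9997) and for Atf3 -0.17 (SE 0.0839, adjusted p = 0.9997). With no filter on low counts, Dusp6 (adjusted p = 0.00208) and Dusp1 (adjusted p = 0.0339) were called. Dusp1 was called on fibronectin and not on uncoated plates, but its 2 responses were not shown to differ by the edgeR test with the filter.

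**Figure D3:**
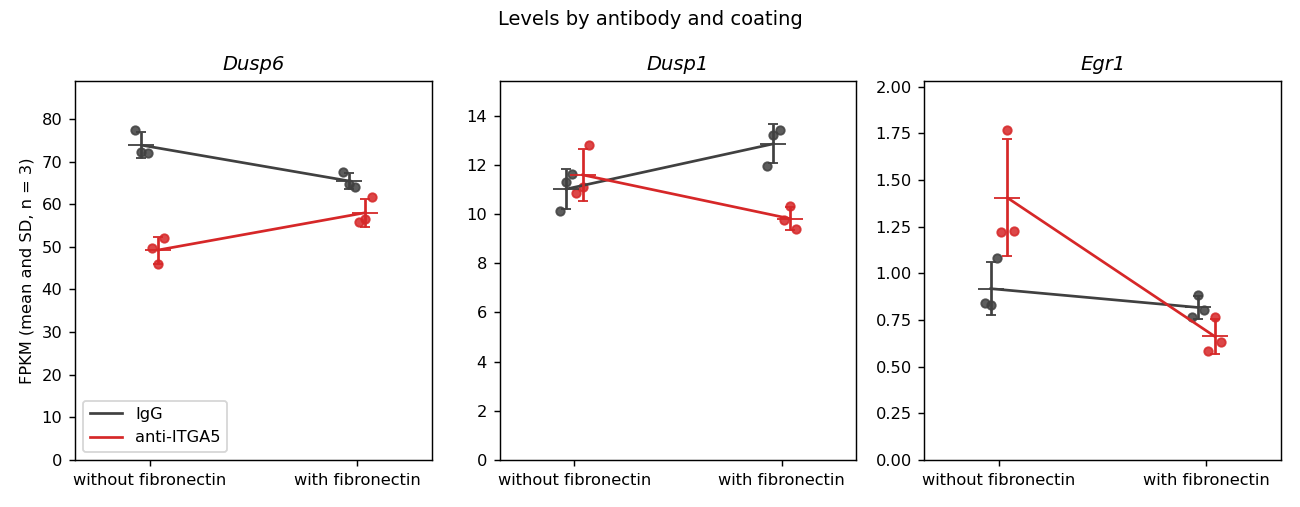
FPKM (vertical axis, from 0) of Dusp6, Dusp1 and Egr1 by plate coating (horizontal axis) with IgG and with anti-ITGA5. Points are libraries, bars the mean and SD of 3, and lines join the means. The Dusp6 means are 73.9 and 49.2 FPKM without and 65.5 and 58.0 FPKM with fibronectin.

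On the length-corrected FPKM scale, the order of mean levels was Atf3, Dusp6, Jun, Junb, Ier3, Ier2, Fos, Dusp1, Spry2 and Egr1 in IgG without fibronectin, where neighbours overlapped only for Dusp1 and Spry2. The order was the same in IgG with fibronectin, with overlap only between Ier2 and Fos. With anti-ITGA5, Jun stood above Dusp6 and Dusp1 above Fos on both surfaces, and Ier2 above Ier3 without fibronectin, but the Jun and Dusp6 libraries overlapped on both. Those of Ier2 and Ier3 overlapped without fibronectin only, and Fos overlapped Spry2 on both surfaces and Dusp1 with fibronectin. Mean levels spanned 0.95 FPKM for Egr1 to 91.5 FPKM for Atf3 over the 12 libraries, at the 20.7th and the 96.6th percentile of genes tested. The spread between replicates, as the biological coefficient of variation over the 12 libraries, was 0.125 for Egr1 and 0.101 for Fos, above the median of 0.0667 over all genes, and 0.0479 for Ier2 and 0.0511 for Dusp6, below it.

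The pattern of each gene over the 12 libraries was compared with that of 9721 other genes by Pearson's r of log2 CPM, as a description, since the libraries share 4 groups. The closest to Atf3 was Usp19 (r = 0.991, Spearman's rho = 0.972), to Junb was Grina (r = 0.989, rho = 0.993) and to Fos was Chpf2 (r = 0.986, rho = 0.965). The closest to Dusp6 was Pdcd6ip (r = 0.959, rho = 0.937). Leaving out the 2 libraries farthest from the median gave 0.986, 0.983, 0.982 and 0.943. The weakest closest match was that of Dusp1, with Zbtb24 (r = 0.866, and 0.782 without those libraries).

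Related genes were described from lists fixed with earlier results of these data known. Of other immediate early genes, 5 of 24 tested fell and 0 rose without fibronectin, and 10 of 25 fell and 0 rose with it, beside the 9.79% lower and 11% higher, and 13.2% lower and 14.4% higher, of all genes tested. At an unadjusted p under 0.05, 9 were lower and 2 higher without fibronectin and 11 lower and 0 higher with it, beside 16.2% and 17.3%, and 18.9% and 19.8%, of all genes tested, and DESeq2 called 0 higher on either surface. Scaled to total counts, 4 were lower and 1 higher without fibronectin and 10 lower and 1 higher with it. Tnfaip3 without fibronectin was not called on that scale (adjusted p = 0.0695), and DESeq2 gave no adjusted p for Cyr61. The median log2 fold changes of the list were -0.12 and -0.20. Those that fell without fibronectin were Klf2, Bhlhe40, Plk3, Mcl1 and Tnfaip3. Klf2, a factor that restrains myeloid activation, changed by -0.54 (SE 0.141, adjusted p = 0.021), and the clock and cytokine regulator Bhlhe40 by -0.54 (SE 0.111, adjusted p = 0.00667). With fibronectin these 5 fell again, together with Klf4, Btg2, Gadd45a, Plk2 and Cyr61. The antiproliferative gene Btg2 changed by -0.59 (SE 0.146, adjusted p = 0.00926), the stress-responsive kinase Plk3 by -0.50 (SE 0.0939, adjusted p = 0.00174) and Klf4 by -0.48 (SE 0.13, adjusted p = 0.0161). Fibronectin in IgG-treated cells raised Mcl1, an anti-apoptotic BCL2 relative, by 0.18 (SE 0.0361, adjusted p = 0.0424).

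Other ERK-induced and feedback genes gave 4 lower and 0 higher of 12 tested without fibronectin, and 4 lower and 2 higher with it, where 9.79% and 11%, and 13.2% and 14.4%, of all genes were called. Of these 12, 4 were lower and 1 higher at an unadjusted p under 0.05 without fibronectin and 5 lower and 2 higher with it, and DESeq2 called 0 higher without fibronectin. The 4 that fell on both surfaces were Spred3, Etv1, Dusp4 and Dusp7. Spred3, a Sprouty-related inhibitor of the pathway, changed by -0.44 (SE 0.107, adjusted p = 0.0152) and -0.53 (SE 0.104, adjusted p = 0.0022). The ETS factor Etv1 changed by -0.40 (SE 0.0743, adjusted p = 0.00387) and -0.31 (SE 0.067, adjusted p = 0.00408). Dusp7, an ERK phosphatase of the same class as Dusp6, changed by -0.28 (adjusted p = 0.0167) without fibronectin, and the nuclear phosphatase Dusp4 by -0.26 (adjusted p = 0.00583) with it. The 2 that rose with fibronectin were Etv5, by 0.18 (adjusted p = 0.00558), and Spred1, by 0.12 (adjusted p = 0.049), both named after their values were seen. DESeq2 did not call Spred1 (0.0511), and total counts called Etv5 higher without fibronectin as well (0.0358). Of 8 other dual-specificity phosphatases, 0 fell and 1 rose without fibronectin, and 1 fell and 2 rose with it. Their median log2 fold changes were 0.36 and 0.06, beside 0.009 and -0.0038 over all genes tested. At an unadjusted p under 0.05, 1 was lower and 3 higher without fibronectin, and 1 lower and 2 higher with it. Dusp23 rose without fibronectin by 0.57 (SE 0.157, adjusted p = 0.027) and with it by 0.69 (SE 0.118, adjusted p = 0.00101). Dusp22 rose by 0.25 (adjusted p = 0.0262) and Dusp3 fell by 0.15 (adjusted p = 0.0303) with fibronectin. DESeq2 did not call Dusp23 without fibronectin (adjusted p = 0.0661), and Dusp3 was not called with total counts (0.0927).

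Of 13 other AP-1 and EGR family genes tested, 0 fell and 1 rose without fibronectin, and 2 fell and 1 rose with it. The numbers at an unadjusted p under 0.05 were 1 lower and 2 higher without fibronectin and 5 lower and 1 higher with it, and DESeq2 called 0 without fibronectin. Atf2, a partner of c-Jun, was the gene that rose, by 0.18 on each surface (adjusted p = 0.0475 and 0.044), and DESeq2 did not call it. Jund changed by -0.30 (SE 0.0731, adjusted p = 0.00862) with fibronectin, and Fosb, at 16 to 50 counts, by -0.95 (SE 0.311, adjusted p = 0.0389), for which DESeq2 gave no adjusted p. Among 21 genes of the ERK pathway itself, 1 fell and 3 rose without fibronectin and 3 fell and 1 rose with it. Over all genes tested, 9.79% fell and 11% rose without fibronectin, and 13.2% fell and 14.4% rose with it. DESeq2 called 1 lower and 0 higher without fibronectin, and with fibronectin total counts turned the balance to 1 lower and 6 higher. The adaptor Grb2 fell on both surfaces, by 0.19 (adjusted p = 0.0239) without fibronectin and by 0.23 (adjusted p = 9.9e-04) with it. Of 15 JNK, p38 and ERK5 pathway genes, 0 were called without fibronectin, and with it 3 fell, Mapk7 and Map2k7 among them, and 1 rose, Map2k3. With total counts 1 fell and 1 rose with fibronectin, Mapk7 (adjusted p = 0.064) and Map2k7 (0.0785) being lost, and DESeq2 did not call Map2k7 (0.0734). Of 8 genes for serum response factor, its partners of the ternary complex and MRTF families, and the CRE-binding factors Creb1 and Crem, 0 were called without fibronectin and 1, Mkl2, fell with it, by 0.24 (adjusted p = 0.00712). Of 11 heat shock genes, 0 were called without fibronectin, a comparison that holds the library with few Hsp90aa1 counts, and 2 fell and 2 rose with it, or 1 and 3 with total counts. Total counts also called Map2k3 (adjusted p = 0.0236) and Hspd1 (0.0174) higher without fibronectin. In those 3 lists without fibronectin, 3, 1 and 2 genes were at an unadjusted p under 0.05, smaller shares than over all genes tested, and DESeq2 called 0 in each. In the lists of this paragraph, 0 to 3 genes were called in each direction on each surface. Above the shares over all genes tested were the 3 of 21 ERK pathway genes that rose without fibronectin. With fibronectin, the 3 of 21 ERK pathway, 3 of 15 JNK, p38 and ERK5 and 2 of 13 AP-1 and EGR family genes that fell were also above. So were the 2 of 11 heat shock genes in each direction with fibronectin. The other counts lay below the shares, and no list was tested as a set. At an unadjusted p under 0.05, 5 of 13 AP-1 and EGR family genes and 5 of 15 JNK, p38 and ERK5 pathway genes were lower with fibronectin, against 18.9% of all genes.

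**Figure D4:**
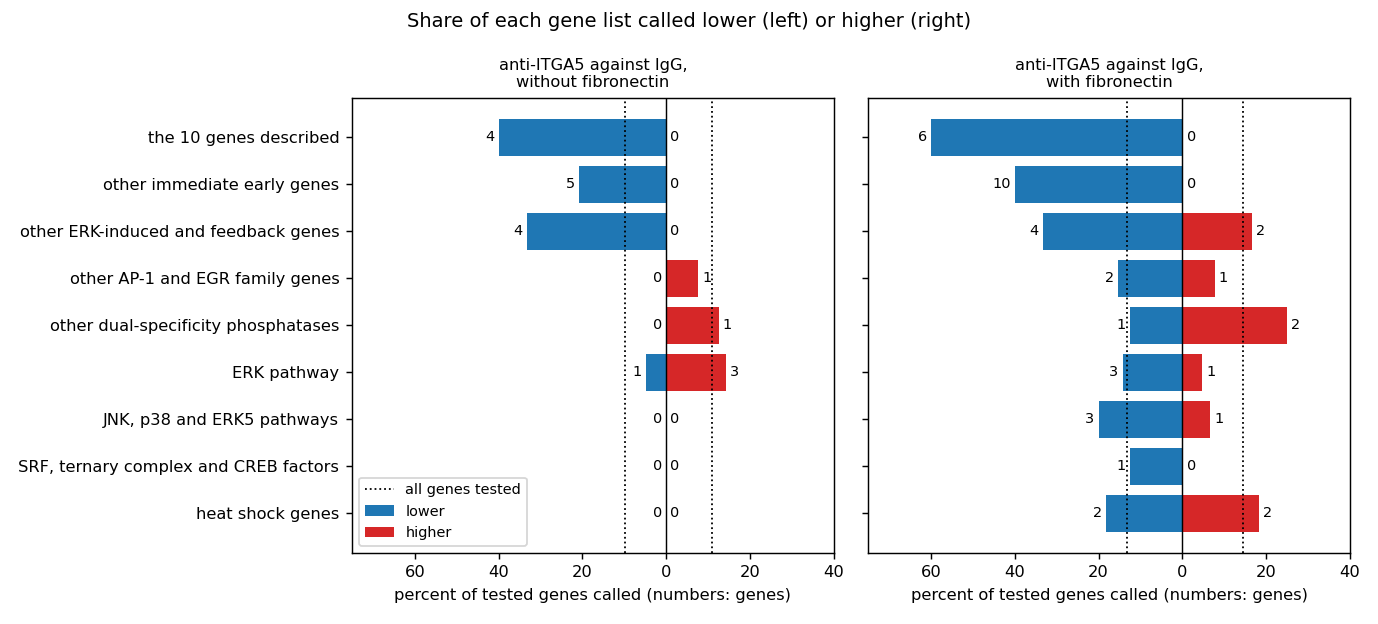
Percent of the tested genes of each list called lower (left bars) or higher (right bars) upon ITGA5 neutralization, without and with fibronectin; the numbers are genes and dotted lines mark the share over all genes tested. The 10 genes described here were lower in 4 and 6 cases, and other immediate early genes in 5 and 10.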

How the data were processed

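RNA was enriched for polyA transcripts, prepared with the NEBNext Ultra kit and sequenced as 150 bp paired-end reads. Per the study's methods and the submitters' processing notes, the authors used TopHat2 2.0.9, mm10 (GRCm38.p6), HTSeq 0.6.1 and Cufflinks 2.1.1. They deposited raw read counts per gene and FPKM values, which correct for total depth and length. The annotation release and the strand setting are not given in the sources used here.

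Counts were tested with edgeR 4.0.16 in R 4.3.3 (quasi-likelihood test, TMM scaling, filterByExpr with a minimum count of 10 and a total of 15, Benjamini-Hochberg adjustment over all genes tested, two-sided, threshold 0.05), on the 6 libraries of each comparison, or all 12 for the interaction. The standard error was taken from the F statistic. The procedure was tested on simulated data. FPKM values are shown as levels and were not tested. DESeq2 1.42.0, other scalings, no filter, all libraries in one fit, a replicate block and leaving out each library were alternatives. The 10 genes, the related lists and the tests were chosen with earlier results of these data known. From each related list, up to 3 called genes with the largest fold change in each antibody comparison and up to 2 in each fibronectin comparison, if each library compared held 10 counts or more, were named by rule.

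Total counts of 12954342 to 22075432 per library limit low genes such as Egr1 most. Replicate numbers in the labels were not treated as pairs in the main tests. One of the listed genes is not reported by name here.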

Additional observations from a re-analysis of the deposited data

How the results depend on the processing

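Upon ITGA5 neutralization, leaving out each library gave 2 to 4 of the 10 genes without fibronectin (2 without IgG without fibronectin replicate 3, Fos and Dusp6) and 4 to 6 with fibronectin (4 without IgG with fibronectin replicate 1). The other settings gave 3 to 6 without fibronectin and 6 with it. Of these calls 1, Egr1 without fibronectin, was higher with total counts, no filter and all libraries in one fit. It was also higher on leaving out anti-ITGA5 without fibronectin replicate 3. All other calls upon neutralization were lower. For fibronectin against uncoated plates in IgG, 0 became 1 with DESeq2, 1 with total counts, 3 with no filter and 6 with the replicate block, and 0 to 1 on leaving out a library. In anti-ITGA5 it became 1 with no filter (Egr1), and for the interaction 1 with DESeq2 and 2 with no filter. The cause was not tested. Deviations of same-numbered libraries from their group means correlated at -0.0196 to 0.149. The highest correlation with a library of another number was -0.0464 to 0.11. The same-numbered value was the higher one, except for replicates 2 and 3 in fibronectin against uncoated plates in anti-ITGA5. The labels do not say whether equal numbers mark pairs, so pairing was not settled and the replicate block is given only here. The block gave 5 of the 10 genes without fibronectin (Ier3 added, adjusted p = 0.0485) and 6 with it, and left the interaction at 0 of the 10. It moved the calls over all genes in fibronectin against uncoated plates in IgG from 16 lower and 42 higher to 133 and 283. Without the block, other settings moved that count to 41 and 100 (DESeq2), 66 and 175 (no filter), 1 and 10 (all libraries in one fit) and, on leaving out a library, as far as 3 and 6 or 24 and 77. Total counts gave 23 and 34. Upon neutralization without fibronectin, leaving out IgG without fibronectin replicate 1, 2 or 3 or anti-ITGA5 without fibronectin replicate 1 gave 627 and 846, 786 and 1010, 674 and 893, and 754 and 1001, in place of 1265 and 1419, and leaving out anti-ITGA5 without fibronectin replicate 2 raised them to 1842 and 1992. With fibronectin, leaving out anti-ITGA5 with fibronectin replicate 1 gave 1113 and 1323 in place of 1699 and 1866. In anti-ITGA5, no filter gave 214 lower and 113 higher genes in place of 0 (DESeq2 2 and 3, the block 2 and 0, one fit 1 and 1, a left-out library up to 4), and in the interaction 32 and 33 in place of 3 and 0 (1 to 4 lower and 0 to 3 higher on leaving out a library).

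Signs changed only for log2 fold changes near 0 when a library was left out. The ranges were -0.0008 to 0.13 for Dusp1 upon neutralization without fibronectin and -0.0008 to 0.12 for Junb with fibronectin in IgG. In anti-ITGA5 they were -0.16 to 0.11 for Fos, -0.0098 to 0.19 for Junb, -0.0745 to 0.0253 for Ier2 and -0.0321 to 0.0971 for Spry2. For the interaction they were -0.0404 to 0.0521 for Jun, -0.0504 to 0.154 for Junb, -0.11 to 0.0931 for Ier3 and -0.11 to 0.0216 for Spry2.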
